A study of Mus musculus with 16 samples.

Results

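The circadian clock output genes described here are Ciart, Dbp, Tef, Hlf, Per1, Per2, Per3, Nr1d1, Nr1d2 and Npas2, 10 of the 17362 genes listed in a bulk RNA-seq table of mouse pituitary glands. The members were chosen by name with earlier results from these same 16 libraries in view, so differences between the groups among them are a description and not evidence that the clock stood apart. All 10 were present, and all 10 averaged 1 or more over the 16 mice, the filter on low values that left 14345 genes for the tests.

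The study sought a circulating factor that builds bone in females lacking oestrogen receptor alpha in Nkx2-1 lineage cells. It compared them with control females, with and without a high-fat diet. The pituitary was profiled as a possible source, and the paper reported no viable candidate from it. Controls carried the floxed Esr1 fl/fl allele without Cre, and mutants (Esr1Nkx2-1Cre) carried the same floxed allele with Nkx2-1 Cre, which removes Esr1 in cells that have expressed Nkx2-1. Both were females of 27 weeks of age on a mixed CD-1;129P2 background, and received standard diet (SD) or, for 17 weeks, a high-fat diet (HFD), with 4 mice in each of the 4 groups and 1 library per mouse. Because deletion follows the history of Nkx2-1, it covers parts of the hypothalamus and other Nkx2-1 lineage tissue rather than the pituitary as such, so the mutants are no model of a pituitary-specific loss. Animals were kept on a light-dark cycle, and the hour at which each gland was collected is not given in the sources used here, so its part in the values below was not tested. Mice are named by their titles, P339 to P392.

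The molecular clock is a feedback loop in which CLOCK or NPAS2 pairs with BMAL1, the product of Arntl, and activates genes that carry E-box sequences. Among these genes are the period and cryptochrome repressors, which shut the activators off again, the nuclear receptors REV-ERB alpha and beta (Nr1d1 and Nr1d2), which repress Arntl and Npas2, the PAR bZIP activators Dbp, Tef and Hlf, which act on D-box sequences, and Ciart, a repressor of BMAL1-driven transcription. In most tissues, the pituitary included, the E-box outputs therefore peak at roughly the opposite time of day from Arntl and Npas2, and a single time point catches every gene at 1 phase of its cycle.

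Promoter windows of RefSeq on GRCm38.p6, from 250 bases before to 50 after each start, were available for 9 of the 10 members (11 windows), and Per2 is named only. The windows below are shown because they hold letters of motifs that clock factors are known to recognise: E-box letters in Ciart, the member with the largest difference between groups, and in Tef, D-box letters in Per3, and the core of the element that REV-ERB and ROR receptors recognise in Arntl, the gene that is read here beside the members. Capitals mark the matches. The Ciart window is chr3:95882179-95882478 (minus strand), the upstream start of Tef is chr15:81802423-81802722 and its other start chr15:81811164-81811463 (plus strand), the Per3 window is chr4:151044616-151044915 (minus strand) and the Arntl window is chr7:113207261-113207560 (plus strand).
Ciart: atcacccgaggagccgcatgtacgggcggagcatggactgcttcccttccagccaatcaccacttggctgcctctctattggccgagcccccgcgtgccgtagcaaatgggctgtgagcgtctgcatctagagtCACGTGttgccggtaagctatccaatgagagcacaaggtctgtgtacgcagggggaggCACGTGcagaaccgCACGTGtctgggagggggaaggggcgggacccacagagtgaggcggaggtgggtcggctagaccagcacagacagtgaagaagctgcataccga
Tef, upstream start: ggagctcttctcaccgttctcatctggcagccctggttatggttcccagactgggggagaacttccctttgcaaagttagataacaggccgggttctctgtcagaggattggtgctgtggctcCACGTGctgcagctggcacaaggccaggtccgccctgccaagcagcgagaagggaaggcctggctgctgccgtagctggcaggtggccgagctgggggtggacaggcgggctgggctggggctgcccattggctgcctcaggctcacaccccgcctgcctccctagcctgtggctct
Tef, other start: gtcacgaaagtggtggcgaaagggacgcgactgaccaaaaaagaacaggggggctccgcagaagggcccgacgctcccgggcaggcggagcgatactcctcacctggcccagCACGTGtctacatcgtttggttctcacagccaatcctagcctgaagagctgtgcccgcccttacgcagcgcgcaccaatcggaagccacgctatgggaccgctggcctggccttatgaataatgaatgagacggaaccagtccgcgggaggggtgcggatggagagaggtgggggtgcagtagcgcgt
Per3: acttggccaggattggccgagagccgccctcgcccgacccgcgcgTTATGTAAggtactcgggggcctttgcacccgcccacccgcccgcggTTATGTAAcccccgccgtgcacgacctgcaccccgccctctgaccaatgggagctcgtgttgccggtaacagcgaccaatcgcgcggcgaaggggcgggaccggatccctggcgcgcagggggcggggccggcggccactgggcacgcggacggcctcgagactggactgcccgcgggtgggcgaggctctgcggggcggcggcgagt
Arntl: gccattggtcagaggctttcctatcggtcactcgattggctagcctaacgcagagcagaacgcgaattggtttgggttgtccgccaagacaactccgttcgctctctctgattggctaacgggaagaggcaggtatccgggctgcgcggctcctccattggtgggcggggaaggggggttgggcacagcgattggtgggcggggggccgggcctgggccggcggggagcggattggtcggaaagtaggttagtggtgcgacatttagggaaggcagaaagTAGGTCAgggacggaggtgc

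The E-box (CACGTG, which reads the same on both strands) occurred 3 times in the Ciart window, beginning at -116, -58 and -44 relative to the start, and was found in 7.15% of all 32817 mouse windows. Each Tef window held 1 E-box, at -127 and -138, and 1 of the 2 Per1 windows held 1 at -166, so 3 members carried it. The D-box (TTANGTAA, both strands) occurred in 1 member, Per3, at -205 and -158, against 2.32% of all windows. The ROR element core (TAGGTCA, both strands, 2.61% of windows) occurred in no member window and in the downstream start of Arntl shown above, where it began 31 bases after the start. Hlf held 1 CRE (TGACGTCA, both strands, 1.79% of windows) at -9. None of the 4 motifs overlapped another match. The windows of Dbp, Nr1d1, Nr1d2 and Npas2 held none of these letters. A match is a description of the letters and not a measured binding site.

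Summed values lay between 908897 and 1335782, which is no read depth, and reads on single-transcript genes were estimated at 834258 to 1243535 per library, with 96 to 533 listed genes at 0. P357, a mutant on SD, stood apart: it had the highest sum, the most genes at 0 and the lowest Pomc (1650, against 15600 on average), the precursor made by corticotrophs and melanotrophs, and P392, an HFD control, had the next lowest Pomc (3440). Of genes of the posterior lobe and hypothalamus, P357 listed Rax, Lhx2 and Avp at 0, and P392 listed Nkx2-1, Rax and Avp at 0. Oxt was low in both (0.792 in P357 and 2.1 in P392, against 22.8 on average). Not all such genes were low there. Col25a1 was 13.9 in P357 and 15.3 in P392, against 12.7 on average. Slc17a6 was 18.4 in P357 and 27.1 in P392, against 19.8 on average. Prolactin, the marker of lactotrophs in the anterior lobe, took 28.8% to 40.6% of the summed values in every library. Without P357 and P392 the median log2 difference of the members between HFD and SD was 0.78 in controls and 0.39 in mutants, against 0.70 and 0.48 with them. Of the 33 tested marker genes of cell types, 0 were called by limma between the diets in either genotype (2 in controls and 3 in mutants at an unadjusted p under 0.05). Summed endothelial marker levels were 101 to 123 in SD controls, 94.3 to 183 in HFD controls, 154 to 206 in SD mutants and 149 to 164 in HFD mutants, and summed immune marker levels were 30 to 44.5, 26.1 to 88.4, 53.2 to 134 and 52.3 to 113. Both upper ends in HFD controls were those of P392. Its Kdr was 30.3, against 9.83 to 14.9 in the other HFD controls, and its C1qa 40.9, against 9.92 to 21. Of the markers summed, 3 of 5 endothelial and 1 of 5 immune ones were called higher by limma in mutants averaged over diets. Their part in the genotype differences was not tested. Esr1 itself ranged on SD from 29 to 46.6 in controls and from 10 to 22.2 in mutants, without overlap, and on HFD from 23.6 to 43.4 and from 21.5 to 33.4, with overlap. Its log2 difference was called lower in mutants on SD (-1.09, SE 0.25, limma adjusted p = 0.0409) and not on HFD (-0.34, SE 0.25, adjusted p = 0.696). In whole glands, fewer cells of a type and less RNA per cell cannot be told apart.

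A further division of the mice touches every diet comparison. Animal numbers fell into a lower range (P339 to P359, 6 mice) and an upper range (P381 to P392, 10 mice). The SD controls held 3 lower and 1 upper number, the HFD controls 0 and 4, the SD mutants 1 and 3, and the HFD mutants 2 and 2. What the numbers stand for is not given in the sources used here. In controls, range and diet nearly coincide, and their parts cannot be told apart without P383, the only SD control of the upper range.

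Ciart, also called Chrono, was the member with the widest spread between groups. Its normalised expression was 2.13, 0.659, 0.774 and 1.84 in the SD controls P356, P358, P359 and P383, and 3.98, 11.9, 9.26 and 10.8 in the HFD controls P385, P390, P391 and P392. Every HFD control lay above every SD control. In mutants it was 4.43, 7.29, 2.71 and 2.95 on SD (P357, P381, P382 and P384) and 4.35, 3.27, 5.36 and 4.13 on HFD (P339, P341, P387 and P388). The mutant groups overlapped throughout, and both lay above the SD controls. Group means were 1.35 ± 0.742 in SD controls, 4.28 ± 0.858 in HFD mutants, 4.35 ± 2.11 in SD mutants and 8.98 ± 3.5 in HFD controls (SD, n = 4 each), the middle pair of which did not differ beyond their spread. Ciart is expressed at a low level, and from 5 to 21 reads, depending on the transcript, would account for its value in P358.

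**Figure D1:**
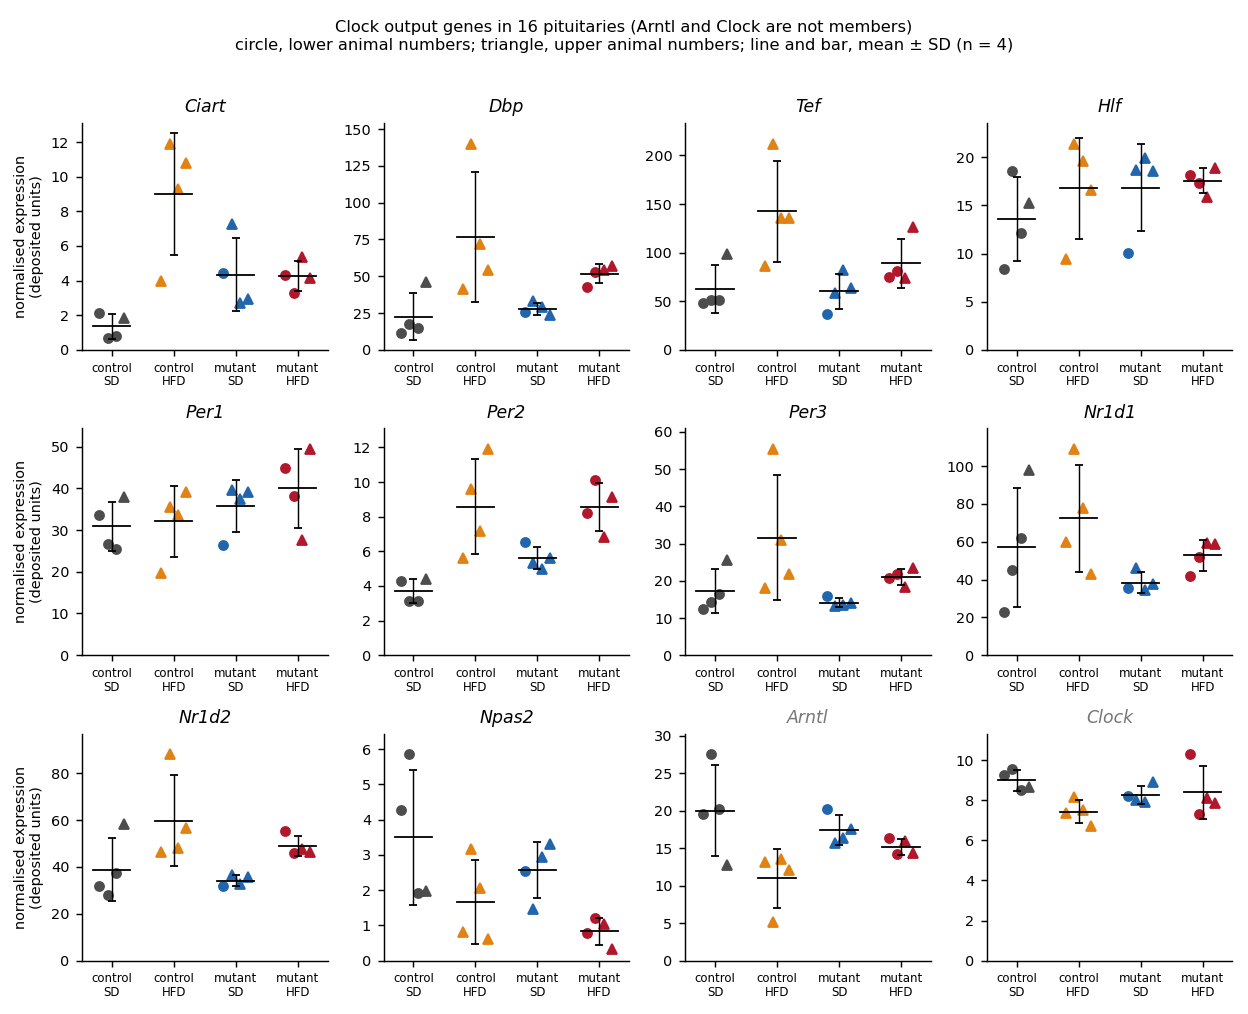
Normalised expression (deposited units) of the 10 clock output genes, and of Arntl and Clock, in each of 16 pituitaries by genotype and diet. Circles are mice of the lower range of animal numbers, triangles those of the upper range, and lines with bars give the mean ± SD of 4 mice; all HFD controls sit above all SD controls for Ciart and Per2.

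The PAR bZIP activators came next. Dbp stood at 11.2, 17.7, 15.2 and 46.1 in the SD controls and at 41.1, 140, 72.1 and 54 in the HFD controls, so the groups overlapped only through P383 on SD and P385 on HFD. In mutants Dbp was 25.9, 33.3, 28.9 and 23.5 on SD and 42.5, 53, 54.6 and 56.9 on HFD, without overlap. Dbp was the most variable member after Ciart and Npas2, spanning a 12.5-fold range over the 16 mice. Tef, its paralogue, was 47.8, 51.5, 51.4 and 99.1 in SD controls and 86.1, 212, 136 and 136 in HFD controls, and again P383 was the SD control that reached into the HFD range. Tef in mutants was 37.3, 58.7, 81.7 and 63.5 on SD and 74.9, 81.2, 73.5 and 126 on HFD, and these groups overlapped. Hlf, the third member of the family, hardly separated the groups: means ran from 13.6 ± 4.36 in SD controls to 17.6 ± 1.33 in HFD mutants (SD, n = 4), and every pair of groups overlapped.

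Of the period genes, which encode the repressors that close the loop, Per2 separated the diets most clearly. Per2 was 4.26, 3.13, 3.11 and 4.4 in SD controls and 5.64, 9.62, 7.17 and 11.9 in HFD controls, and 6.51, 5.33, 4.98 and 5.6 in SD mutants and 8.21, 10.1, 6.84 and 9.12 in HFD mutants. HFD values lay above SD values within each genotype, with no overlap, while the HFD groups of the genotypes had nearly the same mean (8.58 ± 2.75 in controls and 8.56 ± 1.38 in mutants). Per3 was 12.3, 14.4, 16.4 and 25.7 in SD controls and 18, 55.4, 30.9 and 21.8 in HFD controls, which overlapped, and 15.8, 13.1, 13.6 and 14.1 in SD mutants against 20.7, 21.8, 18.2 and 23.5 in HFD mutants, which did not. Per1, which also answers directly to hormones and cAMP, had means between 30.9 ± 5.91 in SD controls and 40 ± 9.52 in HFD mutants, all overlapping.

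The REV-ERB genes ran between these. Nr1d2 was 31.7, 28, 37.4 and 58.3 in SD controls and 46.4, 88.1, 48 and 56.6 in HFD controls, with P383 alone reaching into the HFD range. In mutants Nr1d2 was 31.7, 36.4, 32.8 and 35.9 on SD and 55.4, 46, 47.7 and 46.6 on HFD, with no overlap. Nr1d1 varied more within the control groups, from 23.1 to 98 on SD and from 42.8 to 109 on HFD, and was 34.3 to 46.3 in SD mutants and 41.7 to 59.1 in HFD mutants, all overlapping. Npas2, an activator that REV-ERB represses, was the only member whose mean was lower on HFD in both genotypes. It was 4.27, 5.85, 1.91 and 1.97 in SD controls, 0.817, 3.16, 2.05 and 0.613 in HFD controls, 2.54, 1.46, 2.94 and 3.31 in SD mutants and 0.787, 1.2, 1.03 and 0.323 in HFD mutants, so the diets overlapped in controls and not in mutants. As the lowest-expressed member, Npas2 rests on 21 to 432 reads per library by the same estimate.

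Over the members, SD controls had the lowest group mean for 5 of 10 and HFD controls the highest for 7 of 10, with Hlf and Per1 highest in HFD mutants and Npas2 highest in SD controls.

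On the log2(value + 0.5) scale, the largest difference of a member in the 4 comparisons of 4 mice against 4 was that of Ciart between HFD and SD in controls. Ciart was higher on HFD by 2.35 (SE 0.36, 95% interval 1.59 to 3.11, a fold of 5.09) and had the smallest p of the 14345 genes, yet its adjusted p was 0.0564 by limma and passed no threshold. Per2 was higher by 1.07 (SE 0.20, rank 4), Dbp by 1.80 (SE 0.37, rank 8) and Tef by 1.18 (SE 0.29, rank 23), with adjusted p between 0.266 and 0.644. Nr1d2 differed by 0.62 (SE 0.21), Per3 by 0.77 (SE 0.27) and Npas2 by -0.93 (SE 0.41), and the 95% intervals held 0 for Nr1d1 (0.44, -0.28 to 1.16), Hlf (0.29, -0.27 to 0.86) and Per1 (0.03, -0.44 to 0.50). By limma 0 members were called, as were 0 of all genes (0% of those tested), and at an unadjusted p under 0.05 there were 6 members higher and 1 lower, against 4.13% of all tested genes. The groups did not overlap for 2 members, Ciart and Per2, both higher on HFD, against 1.25% of all genes higher without overlap. The median difference of the members was 0.70 and that of all genes 0.00. Since earlier results of these mice were known when the members were named, nothing is read from these counts.

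**Figure D2:**
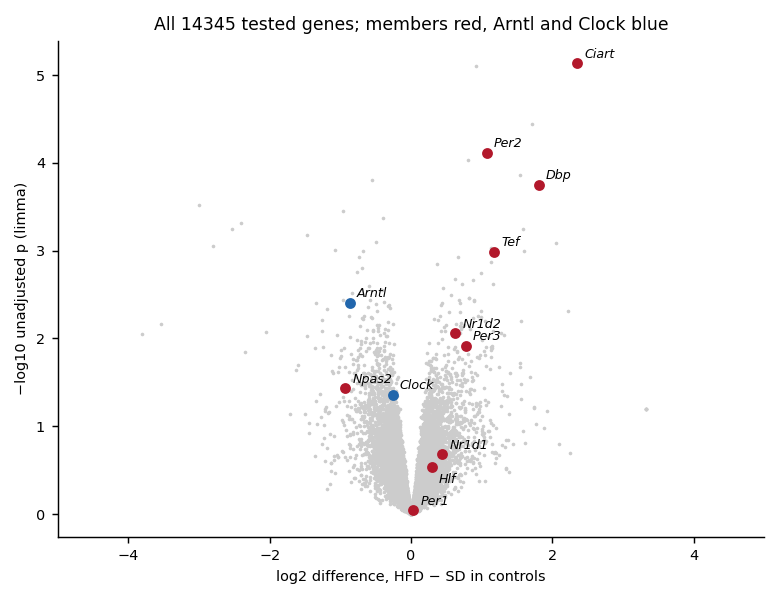
Log2 difference between HFD and SD in controls (x axis) against -log10 of the unadjusted limma p (y axis), 1 point for each of 14345 tested genes. Members are red, Arntl and Clock blue; Ciart is the topmost point, and Per2, Dbp and Tef stand among the highest, while Per1 sits near 0.

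These control differences leaned on single mice. How many of all genes were called in the repeats below was not computed, so the calls have no background. Without P383, the differences were 2.49 for Ciart (limma adjusted p = 0.0359) and 2.21 for Dbp (adjusted p = 0.0126), so 2 members were called. Without P385, the HFD control with the lowest Ciart, Ciart was called (2.68, adjusted p = 0.00642). Without P390, the member median was 0.44 and 0 were called. With animal-number range as a covariate, Ciart stood at 2.17 (adjusted p = 0.381), Per2 at 1.12, Dbp at 1.34, Tef at 0.68 and Nr1d1 at 0.03. Among the 10 upper-range mice alone, where P383 was the only SD control and the lone sample is assumed to vary like the other groups, the differences were 1.92 for Ciart, 0.84 for Per2, 0.57 for Dbp, 0.45 for Tef and -0.51 for Nr1d1, with a median of 0.12 over the members.

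In mutants, whose diets share the number ranges more evenly, the same comparison gave a smaller spread of differences. Dbp was higher on HFD by 0.88 (SE 0.37), Per2 by 0.56 (SE 0.20), Per3 by 0.56 (SE 0.27) and Nr1d2 by 0.51 (SE 0.21), each without overlap, and Npas2 differed by -1.20 (SE 0.41) without overlap. The remaining differences were 0.57 for Tef (SE 0.29), 0.45 for Nr1d1 (SE 0.34), 0.15 for Per1 (SE 0.22), 0.10 for Hlf (SE 0.27) and 0.06 for Ciart (SE 0.36). By limma 0 members were called, as were 0 of all genes (0%), with 3 members higher and 1 lower at an unadjusted p under 0.05 against 2.55% of all genes higher and 2.45% lower. Groups did not overlap for 4 members higher and 1 lower, against 1.88% of all genes higher and 1.44% lower. The median was 0.48, and 0.39 without P357, which turned Hlf to -0.12.

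Diet averaged over genotypes set 8 mice against 8. Per2 differed by 0.82 (SE 0.14, adjusted p = 0.162 by limma), Dbp by 1.34 (SE 0.26, adjusted p = 0.217), Ciart by 1.20 (SE 0.25, adjusted p = 0.316), Tef by 0.88 (SE 0.21), Nr1d2 by 0.57 (SE 0.15), Per3 by 0.66 (SE 0.19) and Npas2 by -1.07 (SE 0.29). They ranked 3, 7, 10, 18, 32, 62 and 41 among all genes by p. No member was called (0 of 10 by limma) against 0.00697% of all genes, and 6 members were higher and 1 lower at an unadjusted p under 0.05 against 5.11% of all genes. Dbp was called without P383 (1.55, adjusted p = 0.0140) and Per2 without P385 (0.90, adjusted p = 0.0268). How many of all genes were called in these repeats was not computed.

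**Figure D3:**
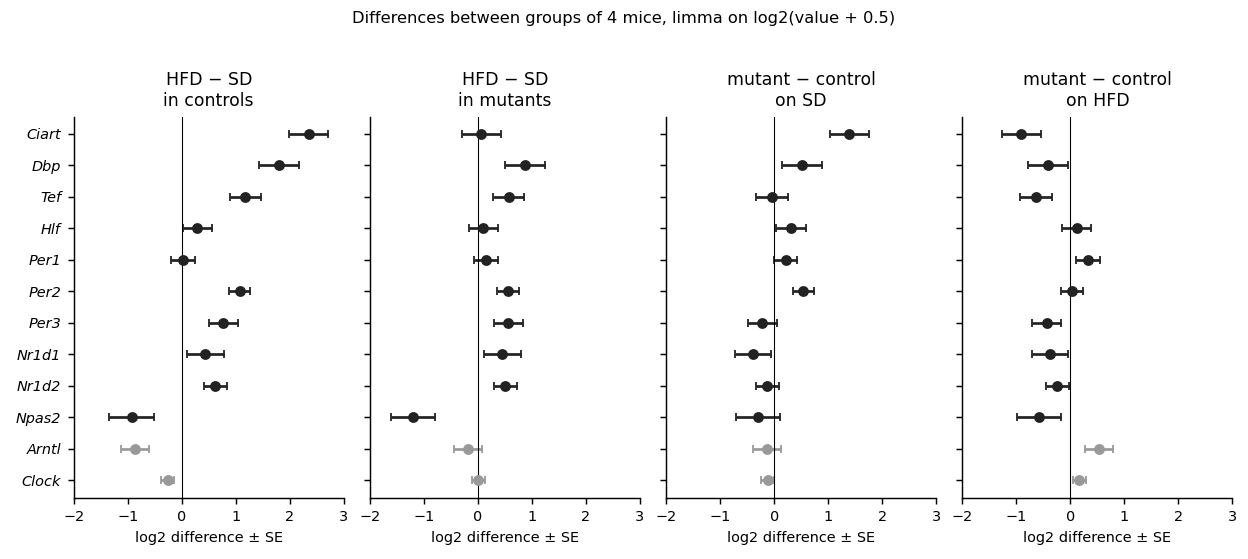
Log2 differences with their SE (x axis) for the 10 members and, in grey, Arntl and Clock in 4 comparisons of 4 mice against 4, fitted by limma on log2(value + 0.5). Ciart is far to the right for HFD against SD in controls (2.35) and near 0 in mutants (0.06), and Npas2 lies to the left under HFD in both genotypes.

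Whether the diet difference itself differed between the genotypes was tested by the interaction. Ciart had the largest value (-2.29, SE 0.51, 95% interval -3.37 to -1.22, rank 6 among all genes), with an adjusted p of 0.846 by limma. Every other member lay between -0.92 (Dbp) and 0.12 (Per1). By limma 0 members and 0% of all genes were called, and 1 member, Ciart, passed an unadjusted p under 0.05 against 4.20% of all genes.

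For mutants against controls on SD the largest differences were those of Ciart (1.39, SE 0.36, limma adjusted p = 0.0566) and Per2 (0.54, SE 0.20, adjusted p = 0.157). Neither was called. Both were higher in mutants without overlap, against 6.09% of all genes higher without overlap. The other 8 members overlapped and lay between -0.39 (Nr1d1) and 0.51 (Dbp). By limma 0 members were called against 1.84% of all genes, with 2 higher and 0 lower at an unadjusted p under 0.05 against 19.9%. In 3 of 16 repeats that each left out 1 mouse, Ciart was called by limma. These were without P356 (1.59, adjusted p = 0.0259), without P385 (1.39, adjusted p = 0.0411) and without P392 (1.39, adjusted p = 0.0369). P385 and P392 are HFD controls outside this comparison, so leaving them out changed the variance and not the difference. In the other repeats the limma adjusted p of Ciart reached up to 0.166. How many of all genes were called in the repeats was not computed.

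On HFD the direction of Ciart was the opposite, with a log2 difference between mutants and controls of -0.91 (SE 0.36, adjusted p = 0.402), and Tef stood at -0.64 (SE 0.29, adjusted p = 0.478), against -0.04 on SD. These comparisons share their mutant or control arms with the diet comparisons above and are not independent of them. By limma 0 members and 0% of all genes were called, with 2 members lower and 0 higher at an unadjusted p under 0.05 against 10.2%. Without P390, Ciart stood at -0.74 and Tef at -0.43. Averaged over both diets, genotype gave a member median of -0.07, with 0 members called by limma against 6.54% of all genes and 0 at an unadjusted p under 0.05 against 22.7%.

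Arntl, the activator of the loop and no member, had a lower mean on HFD in both genotypes. It was 19.5, 27.5, 20.2 and 12.7 in SD controls, 13.1, 5.11, 13.6 and 12.1 in HFD controls, 20.2, 15.7, 16.3 and 17.6 in SD mutants and 16.3, 14.2, 15.9 and 14.3 in HFD mutants. P383 was the lowest SD control and P390 the lowest of all 16 mice. HFD against SD gave -0.87 in controls (SE 0.26, limma adjusted p = 0.998) and -0.19 in mutants (SE 0.26, adjusted p = 0.886), and Clock gave -0.26 (SE 0.12) and 0.01 (SE 0.12). The repressor Cry1 gave -0.38 (SE 0.16) and -0.13 (SE 0.16), and Nfil3, which competes with the PAR bZIP factors at D-boxes, gave -0.47 (SE 0.24) and -0.03 (SE 0.24).

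With the group means removed, the Pearson r of the 10 members with Arntl over the 16 mice ran from -0.89 (Nr1d2) to -0.09 (Npas2). The share of all genes with a negative r was not computed. The smallest p were those of Tef (r = -0.73, permutation p = 0.00454, adjusted 0.0342) and Nr1d2 (r = -0.89, permutation p = 0.00685, adjusted 0.0342). Adjusted values are over the 10 relations tested, and p-values are from 100000 two-sided permutations of mice within groups. Spearman's rho was -0.64 for Nr1d2 and -0.62 for Tef, with permutation p = 0.0242 and 0.0247 (adjusted 0.124 each), so the rank form did not pass. Per3 (r = -0.79) and Dbp (r = -0.77) had adjusted permutation p = 0.109 each, and Npas2 had r = -0.09 (rho 0.03), which turned to 0.57 without P390. The adjusted p of Tef passed in 10 and that of Nr1d2 in 6 of 16 repeats that each left out 1 mouse.

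These relations rested in large part on P390 and P383, the 2 mice farthest from the median of Arntl once group means were removed. Over the other 14 mice, with the group means of all 16 mice still removed, r was -0.68 for Nr1d2, -0.50 for Tef, -0.32 for Dbp and -0.30 for Per3. With group means taken again from the 14 mice, r was -0.46 for Nr1d2 and -0.41 for Tef, and 5 members turned positive: Npas2 (0.50), Per3 (0.17), Nr1d1 (0.15), Dbp (0.13) and Hlf (0.11). Within the upper range of animal numbers (9 mice, after P383 dropped out as the only one of its group), r was -0.95 for Nr1d2 and -0.71 for Tef. P390 was still among these 9 mice, so these values rest on it as well. The lower range held too few mice for a value.

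**Figure D4:**
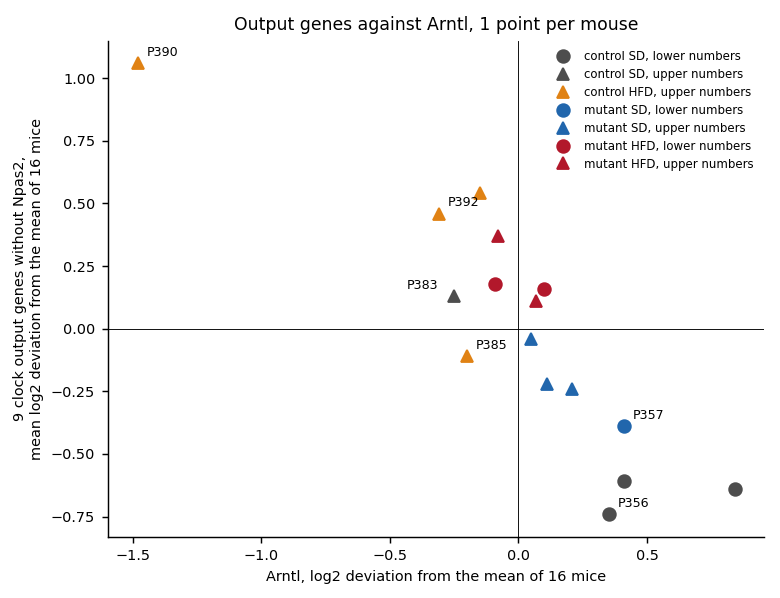
Mean log2 deviation of 9 clock output genes (without Npas2) from the mean of 16 mice (y axis) against the log2 deviation of Arntl (x axis), 1 point per mouse, coloured by group, with circles for lower and triangles for upper animal numbers. P390 lies alone at the upper left (1.06 and -1.48), and the SD controls P356, P358 and P359 lie at the lower right.

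Mouse by mouse, P390 carried the highest value of the 16 for 7 of the 9 members other than Npas2, and P356 the lowest for 4. Averaged over those 9 genes, the log2 deviation from the mean of all mice was -0.74, -0.64 and -0.61 in the lower-range SD controls and 0.13 in P383, and -0.11, 1.06, 0.54 and 0.46 in the HFD controls. P383 lay nearer to the HFD controls than to its own group. SD mutants spanned -0.39 to -0.04, and HFD mutants 0.11 to 0.37, so the mutant diets did not overlap on this average.

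Within groups, most pairs of the 9 members without Npas2 had a positive r, which leaned on P383 and P390. Over the 36 pairs, the median Pearson r with group means removed was 0.48, and 35 of 36 were above 0. The closest pairs were Dbp with Per3 (0.88) and Dbp with Nr1d1 (0.84). Without P383 and P390 the median was 0.21 with 28 of 36 above 0 and a lowest r of -0.56. Pairs of other genes were not computed, so these counts have no background. Npas2 with the other 9 had a median of -0.04. These are descriptions over 16 mice that share depth and tissue.

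Among the 21 other clock genes, 0 were called between the diets in either genotype. At an unadjusted p under 0.05 in controls, 2 were higher (Bhlhe40 and Bhlhe41, E-box repressors) and 4 lower (Arntl, Arntl2, Clock and Cry1), against 4.13% of all tested genes. In mutants 0 were higher and 0 lower, against 2.55% and 2.45% of all genes. The names beyond the fixed list were chosen after their values were seen. Bhlhe40 was the only one of the list called in any comparison, higher in mutants averaged over diets (0.73, SE 0.18, limma adjusted p = 0.0287). Of 15 genes of acute signals, 0 were called between the diets, and all 9 immediate early genes had negative log2 differences between HFD and SD in controls (2 at an unadjusted p under 0.05, Arc and Npas4). Npas4 was called lower in mutants averaged over diets (-0.70, SE 0.19, adjusted p = 0.0405). The part of acute stimulation in the members' values was not tested.

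The genes outside the members whose within-group pattern was most like the average of the 9 outputs, over 16 mice and 14335 genes, were Vangl2 (r = 0.86), Sfxn5 (0.84), Actn1 (0.84), Abca8b (0.82) and Pkd2 (0.82). The most opposite were Denr (-0.87), Armc6 (-0.86), Pdrg1 (-0.85), Pdzd11 (-0.85) and Smyd5 (-0.83), and Arntl had the 10th lowest r of all (-0.81). Cry2, an E-box repressor, had r = 0.66, and Clock 0.02. All these r included P390 and P383 and were not computed without them. Those at each end are the extremes of 14335 genes over 16 mice.

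Some members share sequence with other genes. Exons of Dbp, Tef and Nr1d1 overlap Sphk2, Gm17597 and Thra on the opposite strand, and the use of strand is not given in the sources used here. Ciart shares at least 100 bases at 90% identity with Gm9176, Per3 with Mzt1 and Ska2, and Nr1d2 with AC170187.1. By shared sequence alone, values of these members are less certain than those of Hlf, Per1, Per2 and Npas2. Npas2 is in turn uncertain for its few reads.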

How the data were processed

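Pituitary RNA from 16 female mice was sequenced on an Illumina instrument, 1 library per mouse. The authors quantified reads with kallisto against the mouse transcriptome (mm10) and tested with sleuth, versions not given in the sources used here. The deposited signal is a normalised abundance per gene and mouse: not counts and not plain TPM, since columns sum to 908897 to 1335782. Low values of single-transcript genes were whole multiples of 1 read (within 0.15) for 80.2% to 94.6%, which gave the read estimates and is no recovered count. Use of strand was not given.

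Genes with a mean of at least 1 were fitted on log2(value + 0.5) with limma 3.58.1 (R 4.3.3; 1 mean per group, empirical Bayes with trend), with Benjamini-Hochberg adjustment over 14345 genes at 0.05. A fold on this scale understates the change of low genes. Mouse replicates are separate animals. Correlations used 100000 permutations within groups. Promoter windows and motif letters were read from RefSeq tables, and BLAST 2.17.0 was used to look for sequence that members share with other genes. The fit was tested on simulated data. The members and lists were chosen with earlier results of these data known. Named genes were the members, Esr1, Arntl, Clock, Cry1 and Nfil3, called genes of the clock and acute-signal lists, and the 5 genes most and least like the mean of the members without Npas2. Alternatives changed the filter, pseudocount, scaling, trend, mice used and covariate, and left out each mouse in turn.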

Additional observations from a re-analysis of the deposited data

Results flagged for a closer look

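In each group of 4 mice the lowest and highest values of the members, Arntl, Clock, Cry1, Nfil3 and Esr1 were compared with the rest by Dixon's ratio. Of 60 groups searched, 7 were past its 95% critical value, and about 3 are expected, since chance flags 1 group in 20. Tef stood high in P383 at 99.1 among SD controls (the others 47.8 to 51.5) and in P388 at 126 among HFD mutants (73.5 to 81.2). In P357, a mutant on SD, Hlf was low at 10.1 (18.6 to 19.9), Per1 at 26.4 (37.5 to 39.6), Cry1 at 7.9 (9.36 to 9.53) and Esr1 at 10 (20.5 to 22.2). Arntl was low in P390 at 5.11 (12.1 to 13.6).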

How the results depend on the processing

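Leaving out each mouse in turn moved the number of members called from 0 in the main fit to between 0 and 1 for mutant against control on SD, between 0 and 2 for HFD against SD in controls and between 0 and 1 for diet averaged over both genotypes. With P383 and P390 left out together, chosen after seeing the values, 1 member (Dbp) was called for HFD against SD in controls and 2 (Dbp and Nr1d2) for diet averaged. The share of all genes called was not computed for this fit or for the repeats without 1 mouse, so nothing is read from these counts. With only the upper range of animal numbers, also chosen after seeing the values, the median of the members became -0.26 for mutant against control on SD, 0.12 for HFD against SD in controls, 0.14 for the interaction, -0.38 for genotype averaged and 0.29 for diet averaged, all of which rest on P383 as the only SD control.

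The correlation of Tef with Arntl was -0.69 with number range as a covariate, -0.75 without P357 and P392 and -0.41 without P383 and P390 (group means taken again), and that of Nr1d2 was -0.90 and -0.46 in the last 2, none of which passed. Leaving out single mice gave -0.77 to -0.64 for Tef and -0.93 to -0.82 for Nr1d2, with adjusted permutation p up to 0.146 for each. Tef did not pass without P357, P359, P383, P385, P390 or P392, nor did Nr1d2 without P357, P381 or any 1 of the 8 controls. Of 246 alternatives to a main count, median or correlation, other than leaving out 1 mouse, 234 kept the count of 0 called, a median within the spread or a correlation on its side of the threshold. Of 1986 for single members, 1975 kept their side of the threshold, however far the value moved, and 66 of the 1986 had the opposite sign, none of them called. DESeq2 and edgeR were not run, because the deposited values are not counts. No paired analysis was possible because the labels number no replicates, only animals.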
